A study of Mus musculus with 21 samples.

Results

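The 9 genes Tal1, Lyl1, Lmo2, Lmo4, Ldb1, Ldb2, Tcf3, Tcf4 and Tcf12 encode the bHLH factors, LIM-only proteins, LDB proteins and E proteins of the SCL transcription complex. They were chosen by symbol, and all 9 were found among the 22899 genes listed for the day 5 coculture and among the 27968 genes listed for the sorted cells. RNA-seq covered 21 libraries in 7 groups of 3 replicates. Total cells were taken on day 5 after hematopoietic-like colonies from the 3D peptide system, derived from 129/ola mouse PSCs, were seeded on mitomycin C-treated OP9 stromal cells (3D+OP9) or on a gelatin coating without stroma (3D+0.1% gelatin). The sorted groups were mESC (129/ola, sorted on SSEA-1 and kept on feeder fibroblasts), Lin-Sca-1+c-kit+ cells with or without CD201 from day 5 of 3D+OP9 (D5-LSKCD201+ and D5-LSKCD201-, 129/ola), LSKCD201+ cells from the bone marrow of C57BL/6 mice 6 to 8 weeks old (BM-LSKCD201+) and from the midgestation fetal liver of C57BL/6 embryos (FL-LSKCD201+). The label titles write the sort marker as CD021, read here as CD201 after the sorting text. The study's text calls the libraries of each sorted group biological replicates, and which cultures or animals each came from is not given in the labels. The p-values measure the spread between these libraries. Values are FPKM, reads scaled by transcript length and library size, and the sequencing depth is unknown.

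Procr, which encodes CD201, lay between 57.9 and 61.9 FPKM in D5-LSKCD201+ and between 3.02 and 3.82 FPKM in D5-LSKCD201-, which follows the sort. Pan-hematopoietic markers went against the hematopoietic label of the cultured cells. Ptprc, the CD45 gene, was between 0.305 and 0.602 FPKM in D5-LSKCD201+, against 38.4 to 52.1 FPKM in FL-LSKCD201+ and 64.3 to 71.6 FPKM in BM-LSKCD201+. The 6 pan-hematopoietic markers summed to between 31.2 and 35.6 FPKM in D5-LSKCD201+ and to at least 1080 FPKM in each FL and BM library. The 6 endothelial markers summed to between 1040 and 1070 FPKM in D5-LSKCD201+ and to no more than 166 FPKM in any other sorted library. D5-LSKCD201- held pluripotent markers at 3090 to 3680 FPKM in sum, against 5630 to 6160 FPKM in mESC, and FL-LSKCD201+ held erythroid markers at 4760 to 10800 FPKM. Hepatocyte markers summed to between 338 and 513 FPKM in FL-LSKCD201+ and to no more than 9.78 FPKM in any other sorted library. Stromal markers summed to between 82.6 and 86.5 FPKM in D5-LSKCD201+, between 34.1 and 67.7 FPKM in D5-LSKCD201- and no more than 8.65 FPKM in the other sorted groups. Not all of that list moved with the sum between the D5 groups. On the scale log2(FPKM + 1), D5-LSKCD201+ differed from D5-LSKCD201- by -1.10 in Pdgfra, -0.43 in Pdgfrb, 0.09 in Dcn and 1.21 in Lum. The differences of Col1a1, Col1a2 and Col3a1 were 0.74, 0.62 and 0.97. The part of these cells in the differences described here was not tested. In such bulk libraries, fewer cells of a type and less RNA per cell cannot be told apart. In addition, 3D+OP9 replicate 3, D5-LSKCD201- replicate 2, FL-LSKCD201+ replicate 1 and BM-LSKCD201+ replicate 1 each stood apart from the other two libraries of their group.

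Tal1 (also SCL) and Lyl1 are tissue-restricted bHLH factors that bind DNA at E-box sequences as dimers with the broadly expressed E proteins encoded by Tcf3, Tcf4 and Tcf12. Lmo2 does not bind DNA itself and bridges the bHLH dimer to GATA factors, while Ldb1 binds Lmo2 and dimerizes, which brings distant complexes together. Tal1, Lmo2 and Ldb1 are required for blood formation in the embryo, and Lyl1 is a close relative of Tal1 that supports adult hematopoietic stem cells.

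Upstream windows of Tal1 and Lyl1 are shown because these 2 DNA-binding members both rose from D5-LSKCD201- to D5-LSKCD201+ and from 3D+0.1% gelatin to 3D+OP9. Each window is the 250 bases before an annotated start in RefSeq (GRCm38.p6), read 5′ to 3′ on the plus strand. The capitals mark matches on either strand to the E-box CANNTG, to the GATA sequences AGATAA or AGATAG, to their variants TGATAA or TGATAG, or to the ETS sequence CCGGAA. The Tal1 window is chr4:115056176-115056425 and the Lyl1 window, within an intron of Nfix, is chr8:84701207-84701456, and neither holds annotated exon bases.
Tal1: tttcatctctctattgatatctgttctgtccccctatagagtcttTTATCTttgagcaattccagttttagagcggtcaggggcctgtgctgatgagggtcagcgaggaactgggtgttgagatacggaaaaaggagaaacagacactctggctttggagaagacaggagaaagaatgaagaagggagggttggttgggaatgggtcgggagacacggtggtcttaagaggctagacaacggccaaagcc
Lyl1: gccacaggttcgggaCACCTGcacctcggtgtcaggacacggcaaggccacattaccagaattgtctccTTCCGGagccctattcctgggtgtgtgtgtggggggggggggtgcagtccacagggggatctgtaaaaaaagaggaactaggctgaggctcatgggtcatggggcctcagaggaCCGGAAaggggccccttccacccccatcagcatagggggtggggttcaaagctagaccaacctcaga
The Tal1 window held 1 GATA match and the Lyl1 window held 1 E-box and 2 ETS matches. Among all 32851 windows of this length, 66.2% held an E-box match, 26.5% a GATA match and 12% an ETS match. A second Tal1 window, chr4:115057561-115057810, held none of these matches. Such matches describe the sequence and are not binding sites. Lmo4, Ldb1, Tcf3 and Tcf12 also had entries, whereas Lmo2, Ldb2 and Tcf4 were not matched.

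Tal1 was low in mESC and D5-LSKCD201- and present in the 3 CD201+ groups. Tal1 (chr4:115056426-115071755, plus strand) measured 0.585, 0.504 and 0.495 FPKM in the mESC libraries and 0.948, 0.254 and 1.11 FPKM in D5-LSKCD201-. It measured 5.01, 5.88 and 6.64 FPKM in D5-LSKCD201+, 10.8, 10.2 and 9.54 FPKM in FL-LSKCD201+ and 5.05, 6.80 and 7.53 FPKM in BM-LSKCD201+. The D5-LSKCD201+ libraries lay above every D5-LSKCD201- and mESC library, below every FL library, and overlapped the BM libraries. By limma on log2(FPKM + 1), D5-LSKCD201+ exceeded D5-LSKCD201- in Tal1 by 1.98 ± 0.21 (SE, n = 3 per group) on the log2 scale, with an adjusted p of 0.000128, and the means differed 7.58-fold. Against mESC the difference was 2.16 ± 0.10 (adjusted p = 5.52e-08), and with a pseudocount of 0.1 it was 3.24. Against FL-LSKCD201+ it was -0.71 ± 0.11 (adjusted p = 0.000918). Against BM-LSKCD201+ it was -0.12, with a 95% interval from -0.47 to 0.24 and an adjusted p of 0.49, and after quantile normalization it turned to 0.24.

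Lyl1 separated all 5 groups. Lyl1 (chr8:84701457-84704715, plus strand) was listed at 0.219, 0.216 and 0.189 FPKM in mESC, at 3.41, 2.89 and 4.82 FPKM in D5-LSKCD201- and at 43.6, 46.6 and 48.2 FPKM in D5-LSKCD201+. It reached 87.1, 73.8 and 75.2 FPKM in FL-LSKCD201+ and 105, 104 and 105 FPKM in BM-LSKCD201+. No neighbouring groups in this order overlapped. The mean of Lyl1 in D5-LSKCD201+ was 12.5-fold that of D5-LSKCD201-, a log2 difference of 3.34 ± 0.15 (limma, adjusted p = 1.67e-06). It was lower than in BM-LSKCD201+ by a log2 difference of -1.16 ± 0.05 (adjusted p = 4.09e-07) and lower than in FL-LSKCD201+ by -0.75 ± 0.09 (adjusted p = 0.000228). D5-LSKCD201- already exceeded mESC by 1.94 ± 0.15 (adjusted p = 4.61e-05), or by 3.60 with a pseudocount of 0.1. Lyl1 averaged under the 0.5 FPKM needed for testing in mESC, so each comparison with mESC was tested only through the other group, which fixes its direction. Lyl1 lies inside Nfix, which is on the minus strand, and their exons share 4 bases. Nfix measured between 16.1 and 18.7 FPKM in BM-LSKCD201+, between 2.58 and 4.32 FPKM in FL-LSKCD201+ and no more than 0.734 FPKM in the other groups. Whether reads were counted by strand is not given in the sources used here, and the file gives Lyl1 a locus shared with Nfix and G430095P16Rik. G430095P16Rik measured 37.0 to 56.0 FPKM in BM, 12.8 to 18.3 FPKM in FL and no more than 1.67 FPKM in the other groups. A share of reads of these genes in Lyl1 was not tested.

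Lmo2 had the largest rise from D5-LSKCD201+ to the in vivo cells among the 9 genes. Lmo2 (chr2:103957986-103981878, plus strand) measured 2.31, 2.32 and 2.08 FPKM in mESC, 10.3, 8.16 and 10.3 FPKM in D5-LSKCD201- and 18.8, 25 and 24.6 FPKM in D5-LSKCD201+. It measured 425, 398 and 397 FPKM in FL-LSKCD201+ and 1009, 1116 and 1113 FPKM in BM-LSKCD201+. All 5 groups were separate. The file gives Lmo2 a locus shared with 4931422A03Rik and Fbxo3, although no exon bases of Lmo2 overlap another gene. Fbxo3 measured 30.5 to 37.7 FPKM in FL and BM and 15 to 20.7 FPKM in the other sorted groups. A share of their reads in Lmo2 was not tested. The mean of Lmo2 was 2.38-fold higher in D5-LSKCD201+ than in D5-LSKCD201-, a log2 difference of 1.16 ± 0.14 (limma, adjusted p = 0.000233). In the opposite direction, the FL and BM means were 17.9-fold and 47.4-fold above D5-LSKCD201+, with log2 differences of -4.11 ± 0.12 (adjusted p = 2.59e-07) and -5.51 ± 0.11 (adjusted p = 9.05e-09). Strain and origin cannot be told apart from the culture in either comparison with in vivo cells.

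Lmo4, a LIM-only relative of Lmo2 that also binds LDB proteins, did not share this rise. Lmo4 (chr3:144188530-144205220, minus strand) measured 7.13, 6.93 and 6.67 FPKM in mESC and 6.40, 4.87 and 8.60 FPKM in D5-LSKCD201-, which overlapped. In D5-LSKCD201+ it measured 30.6, 28.1 and 28.7 FPKM, overlapping the FL values of 29.6, 24.6 and 27.5 FPKM and lying above the BM values of 24.3, 21.7 and 24 FPKM. D5-LSKCD201+ exceeded D5-LSKCD201- in Lmo4 by 2.01 ± 0.17 (limma, adjusted p = 3.96e-05). Against FL the difference was 0.10, with a 95% interval from -0.11 to 0.31 and an adjusted p of 0.356, and against BM it was 0.31 ± 0.06 (adjusted p = 0.00285).

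**Figure D1:**
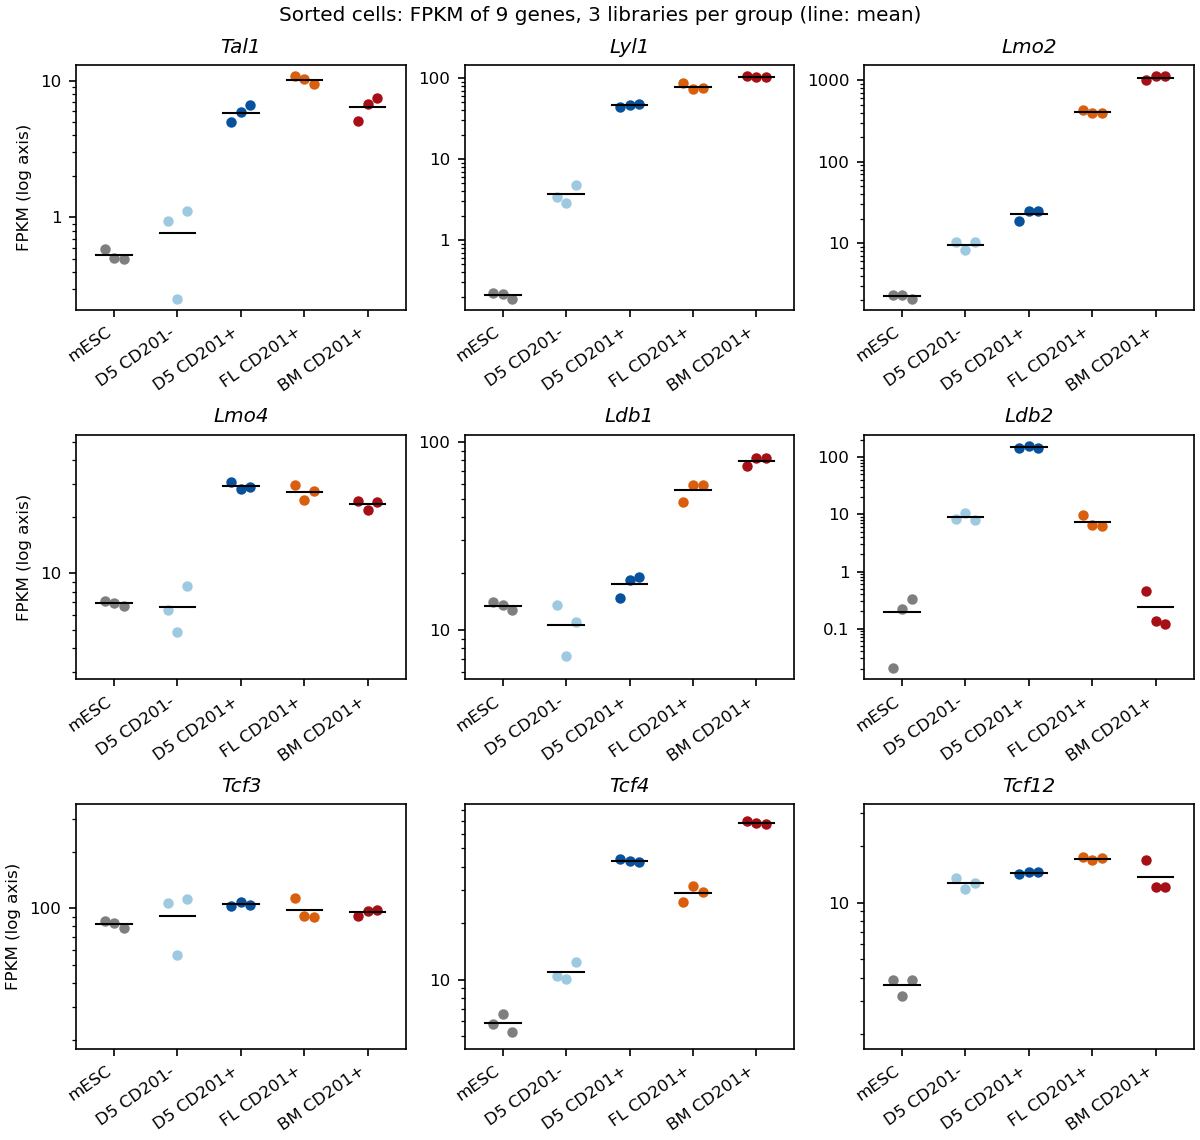
FPKM (log axis) of each of the 9 genes in the sorted cells, with 1 point per library and a line at the mean of the 3 libraries of mESC, D5-LSKCD201-, D5-LSKCD201+, FL-LSKCD201+ and BM-LSKCD201+. Lmo2 climbs from about 2.24 FPKM in mESC to 1079 FPKM in BM, whereas Ldb2 peaks at a mean of 149.5 FPKM in D5-LSKCD201+ and Tcf3 stays between 56.5 and 113 FPKM in every library.

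Ldb1 was highest in the in vivo cells and Ldb2 was highest in D5-LSKCD201+. Ldb1 (chr19:46031570-46045214, minus strand) measured 14.0, 13.6 and 12.8 FPKM in mESC, 13.6, 7.25 and 11 FPKM in D5-LSKCD201- and 14.9, 18.5 and 19.2 FPKM in D5-LSKCD201+. It was higher in the in vivo cells, at 47.8, 58.9 and 59.2 FPKM in FL-LSKCD201+ and 74.7, 82.0 and 82.6 FPKM in BM-LSKCD201+. The D5-LSKCD201+ libraries lay below all FL and BM libraries, by log2 differences of -1.60 ± 0.13 (limma, adjusted p = 3.37e-05) and -2.13 ± 0.10 (adjusted p = 6.03e-07). Against D5-LSKCD201- the difference was 0.70 ± 0.21 (adjusted p = 0.0208), under the 2-fold threshold. Ldb1 shares 177 exon bases with Pprc1 on the other strand. Pprc1 measured 6.52 to 10.7 FPKM in FL and BM, 10.8 to 12.2 FPKM in D5-LSKCD201+, 13.1 to 31.9 FPKM in D5-LSKCD201- and 46.8 to 48.4 FPKM in mESC, and a share of Pprc1 reads in Ldb1 was not tested.

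Ldb2 (chr5:44472132-44799680, minus strand), the paralog of Ldb1, measured 144, 159 and 146 FPKM in D5-LSKCD201+. It measured 8.28, 10.7 and 7.89 FPKM in D5-LSKCD201- and 9.64, 6.43 and 6.23 FPKM in FL-LSKCD201+, which overlapped. It was near 0 in BM-LSKCD201+, at 0.464, 0.137 and 0.121 FPKM, and in mESC, at 0.0203, 0.223 and 0.332 FPKM. Every D5-LSKCD201+ library was thus more than an order of magnitude above every other sorted library. The mean was 16.7-fold that of D5-LSKCD201- and 20.1-fold that of FL-LSKCD201+. On the log2 scale the differences were 3.93 ± 0.11 against D5-LSKCD201- (limma, adjusted p = 2.46e-07), 4.18 ± 0.15 against FL (adjusted p = 8.13e-07) and 6.93 ± 0.11 against BM (adjusted p = 4.55e-09). D5-LSKCD201+ was also the group with the endothelial marker sums of 1040 to 1070 FPKM, and the part of endothelial cells in the Ldb2 level was not tested. FL-LSKCD201+ exceeded BM-LSKCD201+ in Ldb2 by 2.75 ± 0.19 (adjusted p = 3.46e-05), or by 4.58 with a pseudocount of 0.1. Ldb2 averaged 0.241 FPKM in BM, under the 0.5 FPKM mean needed for testing. The comparisons of Ldb2 with BM were thus tested only through the other group, which fixes their direction.

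Among the E protein genes, Tcf3 hardly varied, Tcf4 varied most and Tcf12 was low in mESC alone. Tcf3 (chr10:80409514-80433647, minus strand), which encodes E2A, measured 85.4, 83.1 and 78.8 FPKM in mESC, 106, 56.5 and 112 FPKM in D5-LSKCD201- and 103, 108 and 104 FPKM in D5-LSKCD201+. It measured 113, 90.5 and 89.8 FPKM in FL-LSKCD201+ and 91.2, 96.3 and 97.4 FPKM in BM-LSKCD201+, and each group overlapped its neighbour in the order of means. The Tcf3 difference between D5-LSKCD201+ and D5-LSKCD201- was 0.26, with a 95% interval from -0.31 to 0.83 (limma, adjusted p = 0.374), and without D5-LSKCD201- replicate 2 it turned to -0.05.

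Tcf4 (chr18:69343356-69689079, plus strand), which encodes E2-2, measured 5.81, 6.59 and 5.26 FPKM in mESC, 10.4, 10.1 and 12.4 FPKM in D5-LSKCD201- and 43.7, 43.1 and 42.4 FPKM in D5-LSKCD201+. It measured 25.8, 31.5 and 29.1 FPKM in FL-LSKCD201+ and 70.0, 67.9 and 67.2 FPKM in BM-LSKCD201+, so that no groups overlapped and D5-LSKCD201+ stood between FL and BM. D5-LSKCD201+ exceeded D5-LSKCD201- in Tcf4 by 1.88 ± 0.08 (limma, adjusted p = 1.77e-06). The Tcf4 difference from FL was 0.57 ± 0.09 (adjusted p = 0.000893) and that from BM was -0.66 ± 0.04 (adjusted p = 4.26e-06).

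Tcf12 (chr9:71842688-72111871, minus strand), which encodes HEB, lay between 3.20 and 3.90 FPKM in mESC and between 11.9 and 17.4 FPKM in every other sorted library. The step from mESC was 1.56 ± 0.10 to D5-LSKCD201- (limma, adjusted p = 1.88e-05) and 1.73 ± 0.08 to D5-LSKCD201+ (adjusted p = 3.91e-08). D5-LSKCD201+ differed from D5-LSKCD201- in Tcf12 by 0.17, with a 95% interval from -0.0038 to 0.35 (adjusted p = 0.0753).

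A member was called where its adjusted p was below 0.05 and its level differed at least 2-fold on this scale. On that rule D5-LSKCD201+ exceeded D5-LSKCD201- in 6 of the 9 members (Tal1, Lyl1, Lmo2, Lmo4, Ldb2 and Tcf4). Of all 13691 genes tested, 10.8% were higher and 13.9% lower. The median log2 difference was 1.88 over the 9 genes and -0.12 over all genes tested. With the adjusted p alone 7 members passed, beside 68.3% of all genes, so that this looser count stood near the background. Against mESC, 7 members were higher in D5-LSKCD201+, the same 6 and Tcf12, where 19.5% of all genes were higher and 18.1% lower. Lyl1 and Ldb2 averaged 0.208 and 0.192 FPKM in mESC, under the 0.5 FPKM mean needed for testing. They were tested only through D5-LSKCD201+, which fixes their direction, so their part of the mESC count supports nothing. There all 9 had an adjusted p under 0.05, as had 85.5% of all genes, and the medians were 2.16 and -0.07.

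D5-LSKCD201- exceeded mESC in 4 members, Lyl1, Lmo2, Ldb2 and Tcf12. Lyl1 and Ldb2 averaged 0.208 and 0.192 FPKM in mESC, under the 0.5 FPKM mean needed for testing. They were tested only through D5-LSKCD201-, which fixes their direction, so their part of this count supports nothing. In this comparison 10.9% of all genes were higher and 3.48% lower (1476 and 473 genes, or 1104 and 741 after quantile normalization). By the adjusted p alone 5 members passed, Tcf4 being added, with 54.6% of all genes. The median difference was 0.80 over the members and 0.05 over all genes. Ldb2 rose there by 3.06 ± 0.15 (limma, adjusted p = 5.32e-06), or by 5.13 with a pseudocount of 0.1, and Lmo2 by 1.70 ± 0.12 (adjusted p = 2.26e-05). Tal1 differed by 0.18 with a 95% interval from -0.27 to 0.63 (limma, adjusted p = 0.462), and by -0.10 after quantile normalization. Its D5-LSKCD201- libraries ranged from 0.254 FPKM (replicate 2) to 1.11 FPKM (replicate 3), so the size of this difference depends on single libraries.

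Against FL-LSKCD201+, Ldb2 was the member higher in D5-LSKCD201+ and Lmo2 and Ldb1 were lower, where 15.1% of all genes were higher and 19.6% lower. By the adjusted p alone 7 members and 72.1% of all genes passed. The same 3 genes moved in the same direction against BM-LSKCD201+, with Lyl1 lower in addition, where 17.5% of all genes were higher and 27.2% lower. Ldb2 was tested against BM only through D5-LSKCD201+, which fixes its direction. By the adjusted p alone, 7 members and 83.4% of all genes passed against BM. Over all genes, the 2406 higher and 3753 lower against BM became 2890 and 3007 after quantile normalization, the 2054 and 2673 against FL became 2314 and 2296, and the 1475 and 1904 between the D5 groups became 1716 and 1599. These comparisons share the D5-LSKCD201+ libraries and are not independent of each other. The median difference over the 9 genes was -0.23 against FL and -0.12 against BM, close to the -0.16 and -0.23 over all genes.

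**Figure D2:**
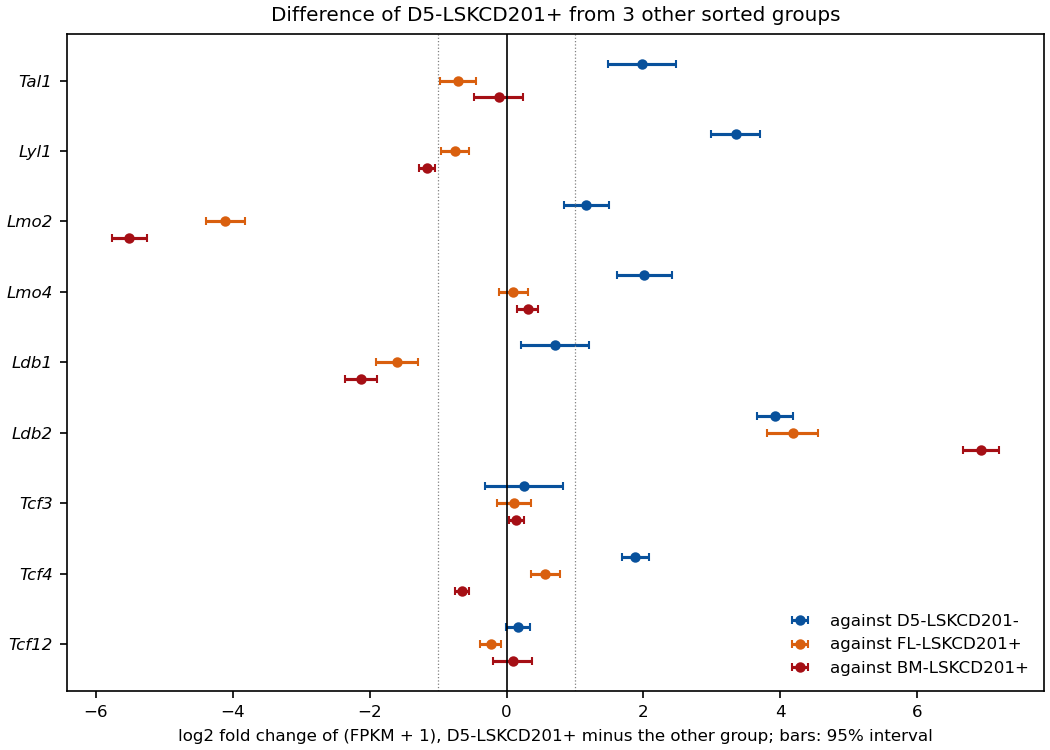
Log2 fold change of FPKM + 1 (x axis) of the 9 genes (y axis) in D5-LSKCD201+ relative to D5-LSKCD201-, FL-LSKCD201+ and BM-LSKCD201+, with 95% intervals from limma over 3 libraries a group and dotted lines at -1 and 1. Lmo2 and Ldb1 lie right of 0 against D5-LSKCD201- and left of -1 against FL and BM, whereas Ldb2 lies right of 3.66 in all 3 comparisons.

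Between the in vivo groups, FL-LSKCD201+ had more Ldb2 and less Lmo2 and Tcf4 than BM-LSKCD201+, where 7.78% of all genes were higher and 11.3% lower. Over all genes, these 1050 higher and 1531 lower became 1211 and 1245 after quantile normalization. Ldb2 was tested here only through FL-LSKCD201+, which fixes its direction. Lmo2 differed by -1.40 ± 0.11 (limma, adjusted p = 5.35e-05) and Tcf4 by -1.22 ± 0.10 (adjusted p = 5.63e-05). By the adjusted p alone 6 members and 55.1% of all genes passed. Over all genes these were 7446, or 4383 with the closest pair of libraries averaged. Among the members, Tal1 was 0.60 ± 0.15 higher (limma, adjusted p = 0.0114), Lyl1 lower at -0.41 ± 0.09 (adjusted p = 0.00782) and Ldb1 lower at -0.53 ± 0.11 (adjusted p = 0.0054). The medians were 0.03 over the members and -0.13 over all genes.

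Ratios within a library show the balance of related members without a scale shared between libraries. The log2 ratio of Ldb2 to Ldb1 was 3.10 ± 0.18 (SD, n = 3) in D5-LSKCD201+, the sorted group in which every library had more Ldb2 than Ldb1 FPKM, against -0.21 ± 0.68 in D5-LSKCD201-, -2.92 ± 0.53 in FL and -8.66 ± 1.15 in BM. Ldb2 was at or below 0.464 FPKM in the BM libraries, so the size of the BM ratio is uncertain. The log2 ratio of Lmo2 to Lmo4 was -0.37 ± 0.30 in D5-LSKCD201+, 0.56 ± 0.27 in D5-LSKCD201-, 3.91 ± 0.10 in FL and 5.53 ± 0.15 in BM, so that Lmo4 exceeded Lmo2 in D5-LSKCD201+ and Lmo2 exceeded Lmo4 in vivo. The log2 ratio of Lyl1 to Tal1 was 2.99 ± 0.13 in D5-LSKCD201+, 2.95 ± 0.09 in FL and 2.49 ± 0.89 in D5-LSKCD201-, whose libraries overlapped, and was 4.04 ± 0.31 in BM. mESC had more Tal1 than Lyl1, at -1.34 ± 0.10, although both were under 1 FPKM there.

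Tcf3 supplied most of the summed E protein FPKM in every sorted group, from 89.6% ± 0.2 in mESC to 53.6% ± 2.1 in BM. The share of Tcf4 was 6.40% ± 0.61 in mESC, 10.0% ± 2.6 in D5-LSKCD201-, 26.5% ± 0.5 in D5-LSKCD201+, 20.2% ± 3.3 in FL and 38.6% ± 0.7 in BM. Between D5-LSKCD201+ and D5-LSKCD201-, the two-sided exact permutation test gave p = 0.1, the smallest that 3 against 3 libraries allow, for 5 of the 6 measures (0.171 after adjustment over 12 tests). The exception was the Lyl1 to Tal1 ratio (exact p = 0.4, adjusted p = 0.533). The shares of Tcf3, Tcf4 and Tcf12 are parts of the same sum, so their tests are not separate results. This design cannot pass 0.05.

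**Figure D3:**
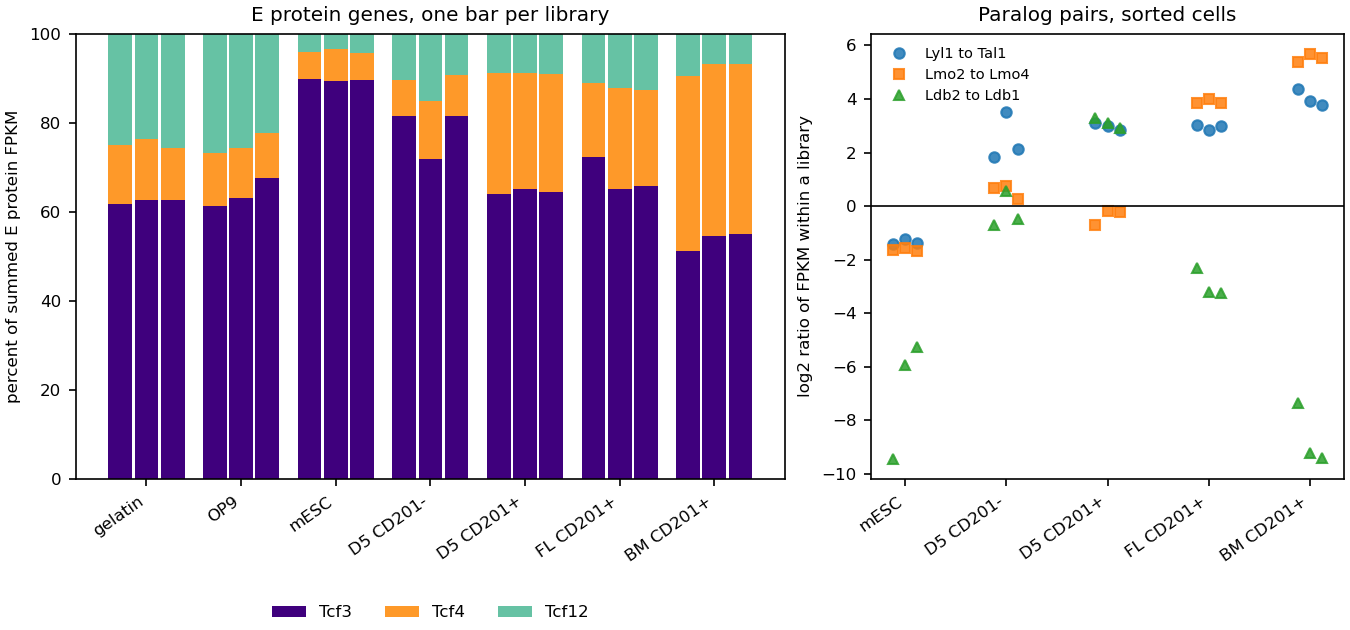
Left, percent of the summed FPKM of Tcf3, Tcf4 and Tcf12 that came from each gene, with 1 stacked bar per library of all 7 groups. Right, log2 ratio of FPKM within each sorted library for Lyl1 to Tal1, Lmo2 to Lmo4 and Ldb2 to Ldb1, where the 3 Ldb2 to Ldb1 points of D5-LSKCD201+ lie between 2.92 and 3.28 and those of BM at -7.33 or below. Ldb2 was at or below 0.464 FPKM in BM.

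In day 5 total cells, Tal1, Lyl1 and Lmo2 were the members higher in 3D+OP9 than in 3D+0.1% gelatin. Tal1 measured 10.5, 12.4 and 9.07 FPKM in 3D+OP9 and 2.60, 0.95 and 1.35 FPKM in 3D+0.1% gelatin. Lyl1 measured 4.86, 6.81 and 4.14 FPKM against 1.02, 0.98 and 0.24 FPKM, and Lmo2 measured 15, 16.1 and 12.4 FPKM against 6.44, 4.23 and 3.76 FPKM. The groups did not overlap in any of these 3 genes. By limma the log2 differences were 2.19 ± 0.23 for Tal1 (adjusted p = 0.00279), 1.86 ± 0.24 for Lyl1 (adjusted p = 0.00547) and 1.44 ± 0.18 for Lmo2 (adjusted p = 0.00553), and the Lyl1 difference was 2.82 with a pseudocount of 0.1. The background was 2.11% of 12958 genes higher and 0.509% lower, and the median difference was 0.40 over the 9 genes and 0.01 over all genes tested.

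Lmo4 went the other way, at 22.3, 22.5 and 17.9 FPKM in 3D+OP9 and 32.0, 40.5 and 32.7 FPKM in 3D+0.1% gelatin, a difference of -0.72 ± 0.13 (limma, adjusted p = 0.0177) that stayed under the fold threshold. Ldb2 measured 4.45, 4.29 and 3.22 FPKM against 1.91, 1.64 and 1.93 FPKM, a difference of 0.81 ± 0.14 (adjusted p = 0.0155), which became 1.07 and passed both thresholds with a pseudocount of 0.1. Ldb1 measured 76.5, 81.3 and 91.8 FPKM against 64.0, 59.1 and 64.4 FPKM, a difference of 0.40 ± 0.09 (adjusted p = 0.0346). With these, 6 of the 9 members passed the adjusted p alone, beside 6.88% of all genes. Over all genes these were 891, or 412 with the closest pair of libraries averaged. The E protein genes did not pass. Tcf3 differed by 0.32 (limma, adjusted p = 0.111), Tcf12 by 0.28 (adjusted p = 0.38) and Tcf4 by 0.07, with a 95% interval from -0.32 to 0.46 (adjusted p = 0.853), and the Tcf4 value turned to -0.03 without 3D+OP9 replicate 1 or 2. Tcf12 measured 30.8, 31.1 and 19.5 FPKM in 3D+OP9, so the size of its difference depends on replicate 3.

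Marker sums of several cell types moved with these coculture differences. Endothelial markers summed to between 75.6 and 90.1 FPKM in 3D+OP9 and between 9.45 and 20.2 FPKM in 3D+0.1% gelatin, and erythroid markers to between 209 and 761 FPKM against 1.33 to 18.3 FPKM. Stromal markers, which mouse OP9 cells also express, summed to between 53.4 and 57.6 FPKM against 25.5 to 36.5 FPKM. Of these, Col1a2 (1.56 ± 0.17, limma, adjusted p = 0.00313) and Col3a1 (1.43 ± 0.18, adjusted p = 0.00547) passed both thresholds. Col1a1 (0.53), Pdgfra (0.31), Pdgfrb (0.66) and Dcn (0.14) did not, and Lum was not tested. Pan-hematopoietic markers summed to between 7.63 and 12.7 FPKM against 4.64 to 5.33 FPKM. In the last list Laptm5 carried the difference (means of 6.40 and 0.337 FPKM), Coro1a averaged 2.26 FPKM on OP9 and 4.31 FPKM on gelatin (limma, adjusted p = 0.0786) and Ptprc was at or below 0.11 FPKM in all 6 libraries. Pluripotent markers had the highest sums, between 620 and 1360 FPKM in 3D+OP9 and between 988 and 1080 FPKM in 3D+0.1% gelatin, ranges that overlapped. Within that list Esrrb was higher in 3D+OP9 by 3.42 ± 0.21 (limma, adjusted p = 0.000623), while Nanog differed by -0.98 ± 0.18 (adjusted p = 0.0197) and Pou5f1 by -0.71 ± 0.16 (adjusted p = 0.0446), both under the fold threshold. The part of these cell types in the member differences was not tested. Within libraries, the log2 ratio of Lmo2 to Lmo4 was -0.53 ± 0.04 in 3D+OP9 and -2.90 ± 0.51 in 3D+0.1% gelatin (two-sided exact permutation p = 0.1, adjusted p = 0.171, n = 3 per group). The shares of Tcf3 were 64.0% ± 3.1 and 62.3% ± 0.4 (exact p = 0.5).

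**Figure D4:**
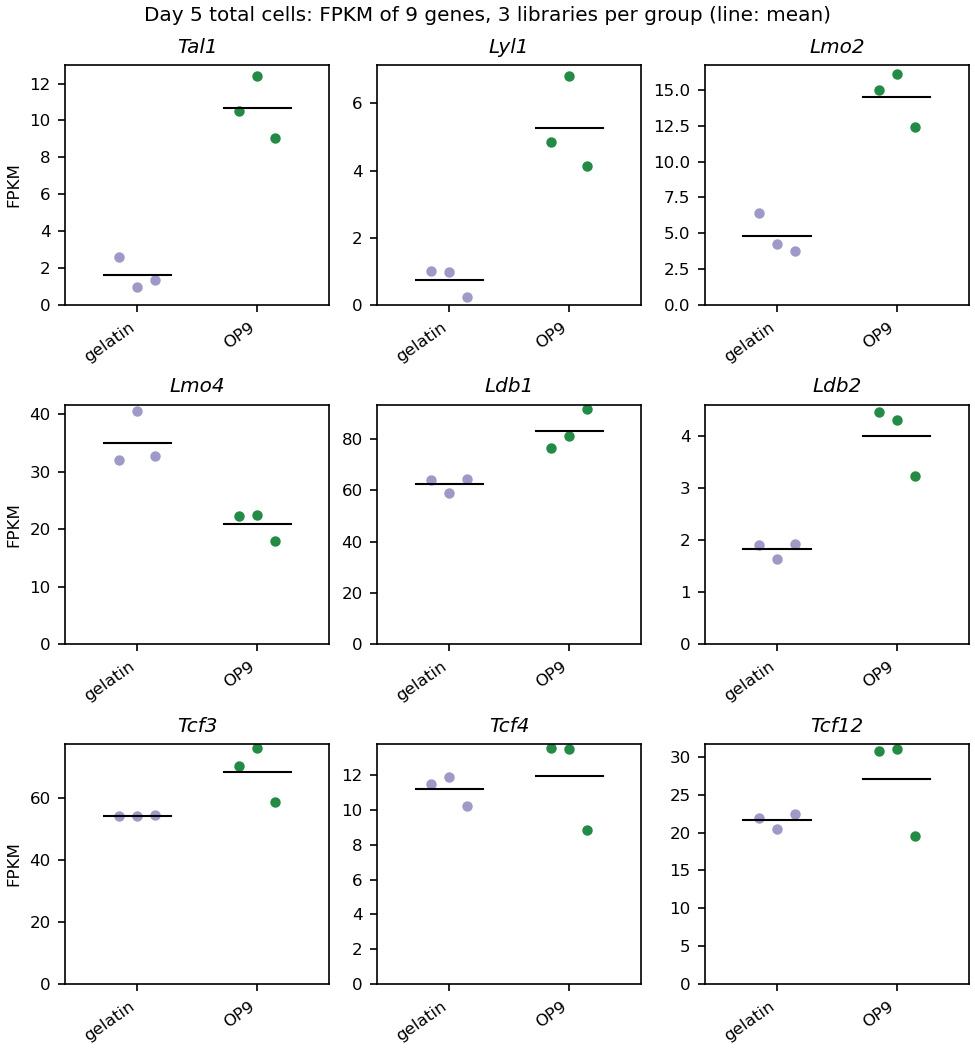
FPKM (linear axis from 0) of the 9 genes in day 5 total cells, with 1 point per library and a line at the mean of the 3 libraries of 3D+0.1% gelatin and 3D+OP9. Tal1, Lyl1 and Lmo2 show separate groups with higher values on OP9, Lmo4 is lower on OP9 and Tcf4 overlaps.

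The other genes of the pathway were read from lists written by hand. A list gene under 0.5 FPKM in one group could be tested only through its level in the other, which fixes its direction, so the counts describe the genes tested and support nothing about a list. The heptad partners Gata2, Runx1, Fli1 and Erg are factors that share many sites with Tal1, Lyl1 and Lmo2 in blood progenitors. Fli1, Erg and Gata2 rose from D5-LSKCD201- to D5-LSKCD201+, by 3.57 ± 0.12, 3.13 ± 0.11 and 2.42 ± 0.20 on the log2 scale (limma, adjusted p = 4.49e-07, 5.85e-07 and 3.43e-05). Runx1, which is needed for the emergence of blood cells from hemogenic endothelium, was lower at -1.19 ± 0.15 (adjusted p = 0.000309). Against FL and BM, Runx1 was lower by -3.96 ± 0.11 and -4.39 ± 0.12 (adjusted p = 2.37e-07 and 3.36e-08) and Gata2 by -1.66 ± 0.08 and -2.21 ± 0.05 (adjusted p = 3.41e-06 and 2.07e-08), and Fli1 and Erg did not pass both thresholds. In 3D+OP9, Erg, Fli1 and Runx1 were higher by 2.13, 2.10 and 1.03. Against mESC all 4 were higher in D5-LSKCD201+, beside 19.5% of all genes, and of the 3 tested in D5-LSKCD201- Runx1 (2.23) and Fli1 (2.06) were higher, beside 10.9%. The corresponding shares were 10.8% higher and 13.9% lower between the D5 groups, 19.6% and 27.2% lower against FL and BM, and 2.11% higher in 3D+OP9. Between FL and BM limma called 0 of the 4, beside 7.78% of all genes higher and 11.3% lower. Gata2 (-0.55 ± 0.09, adjusted p = 0.00155) and Runx1 (-0.44 ± 0.10, adjusted p = 0.00747) were under the fold threshold there, where 55.1% of all genes passed the adjusted p alone.

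Of 14 cofactor genes of the complex, 7 were lower in D5-LSKCD201+ than in FL (19.6% of all genes were lower; median of the list -1.08, beside -0.16 over all genes) and 7 lower than in BM (27.2% of all genes; median -1.03, beside -0.23), and no cofactor was called higher in either. Against FL the largest were Gfi1b (-4.99 ± 0.16), Gata1 (-4.92 ± 0.14), Gfi1 (-4.89 ± 0.21) and Ssbp2 (-2.78 ± 0.08). Against BM they were Gfi1 (-4.24 ± 0.17), Gfi1b (-3.66 ± 0.15), the co-repressor gene Cbfa2t3 (-3.24 ± 0.09) and Ssbp2 (-2.71 ± 0.08), whose product stabilizes LDB1. Against D5-LSKCD201-, 2 of 14 were higher and 3 lower, near the 10.8% and 13.9% of all genes, led by Gata1 (-1.98 ± 0.17), Cbfa2t3 (1.85 ± 0.13), Ssbp4 (1.27 ± 0.13) and Gfi1b (-1.15 ± 0.22). Gata1, the erythroid GATA factor, measured 3.70 to 5.66 FPKM in D5-LSKCD201- and 0.155 to 0.534 FPKM in D5-LSKCD201+, beside erythroid marker sums of 63.0 to 135 and 24.3 to 42.4 FPKM. The part of erythroid cells was not tested. Gata1 averaged 0.406 FPKM in D5-LSKCD201+, so it was tested against D5-LSKCD201- and FL only through those groups, which fixes its direction. Cbfa2t3 averaged 0.308 FPKM in D5-LSKCD201- and was tested between the D5 groups only through D5-LSKCD201+. In 3D+OP9, 3 of 13 were higher, beside 2.11% of all genes, Gata1 (2.13), Gfi1b (1.70) and Cbfa2t3 (1.39). Gata1 and Gfi1b averaged 0.123 and 0.0867 FPKM in 3D+0.1% gelatin and were tested only through 3D+OP9, which fixes their direction.

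The Id genes encode HLH proteins that lack a DNA-binding region and hold E proteins in inactive dimers. Against BM, 3 of 4 were higher in D5-LSKCD201+, beside 17.5% of all genes, Id3 by 2.05 ± 0.10 (limma, adjusted p = 6.63e-07), Id1 by 1.53 ± 0.08 (adjusted p = 1.28e-06) and Id2 by 1.08 ± 0.13 (adjusted p = 0.000117). Against FL, Id3 (2.55 ± 0.10) and Id1 (1.05 ± 0.23) were higher, beside 15.1% of all genes. Against D5-LSKCD201-, Id4 was lower at -1.53 ± 0.18 (adjusted p = 0.000204), beside 13.9% of all genes. Id1 (0.62 ± 0.06), Id2 (0.92 ± 0.09) and Id3 (0.57 ± 0.06) lay in the other direction, with adjusted p of 6.72e-05, 8.69e-05 and 0.000148, under the fold threshold, where 68.3% of all genes passed the adjusted p alone, and the list median was 0.59. All 4 were higher in D5-LSKCD201- than in mESC, beside 10.9% of all genes, led by Id3 (3.59 ± 0.09). Between the coculture groups limma called 0 of 4, beside 2.11% of all genes higher and 0.509% lower, and 1 had an unadjusted p under 0.05.

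Of the relatives Tal2, Msc, Nhlh1, Nhlh2, Lmo1 and Lmo3, Nhlh1, Nhlh2 and Lmo3 were at or below 0.185 FPKM in every sorted library and were not tested between the D5 groups. Msc and Tal2 averaged 3.47 and 1.38 FPKM in D5-LSKCD201- and 0.0154 and 0.0441 FPKM in D5-LSKCD201+, and were tested only through D5-LSKCD201-. Lmo1, a LIM-only relative of Lmo2, in D5-LSKCD201+ was below its level in D5-LSKCD201- (-1.30 ± 0.15), FL (-3.45 ± 0.12) and BM (-1.91 ± 0.11). Of 7 known targets tested between the D5 groups, Cdh5, Itga2b (3.27 ± 0.07) and Hhex (1.01 ± 0.05) were higher and Klf1 (-1.14 ± 0.15) was lower in D5-LSKCD201+, with a list median of 0.62 beside -0.12 over all genes. The shares of all genes were 10.8% higher and 13.9% lower. Against FL, 3 of 9 were higher and 5 lower, beside 15.1% and 19.6% of all genes, and against BM, 3 of 6 were higher and 3 lower, beside 17.5% and 27.2%. Cdh5, the VE-cadherin gene and itself an endothelial marker, was higher in D5-LSKCD201+ than in D5-LSKCD201- (4.44 ± 0.08), FL (5.09 ± 0.15) and BM (6.11 ± 0.07). The erythroid targets Klf1 (-7.23 ± 0.15), Alas2 (-5.23 ± 0.10) and Slc4a1 (-4.79 ± 0.21) were lower in D5-LSKCD201+ than in FL, the group with the highest erythroid marker sum. Klf1, Alas2, Slc4a1 and Epb42 averaged 0.241, 0.455, 0.0297 and 0.153 FPKM in D5-LSKCD201+. Each called difference of these genes was thus tested only through the other group, which fixes its direction. Angpt2 averaged 0.267 FPKM in FL and 0.0104 FPKM in BM, and Cdh5 0.0359 FPKM in BM. These were tested there only through D5-LSKCD201+, so such genes' part of the counts supports nothing. In 3D+OP9, 5 of 6 were higher, beside 2.11% of all genes, led by Cdh5 (3.49 ± 0.25) and Itga2b (2.51 ± 0.14). Itga2b and Alas2 averaged 0.4 and 0.25 FPKM in 3D+0.1% gelatin and were tested only through 3D+OP9, which fixes their direction. Kit, also on this list, was used to sort the LSK cells.

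The genes closest to Tal1, Lyl1, Lmo2 and Ldb2 over the 15 sorted libraries were found by Pearson's r of log2(FPKM + 1) among 14457 genes. The points are 5 groups of 3 libraries that share a group mean, so r describes the order of groups and carries no p. For Tal1 they were Tgfb1 (r = 0.987), Cyp4b1 (0.986) and Zeb2 (0.984). For Lyl1 they were Dusp2 (0.998), Ptbp3 (0.996) and Rcsd1 (0.996). Dusp2, a phosphatase of MAP kinases, averaged 1.61 FPKM in mESC, 131 FPKM in D5-LSKCD201+ and 395 FPKM in BM. For Lmo2 they were Rsph3a (0.998), Csk (0.997) and Rnaset2b (0.997). Rsph3a and Rnaset2b have close copies in the mouse genome, so their values are uncertain. For Ldb2 they were Zfp711 (0.995), Galnt7 (0.990) and Pdia3 (0.990), and Zfp711 averaged 30.5 FPKM in D5-LSKCD201+, 2.99 FPKM in D5-LSKCD201- and 0.147 FPKM in BM. Among the members, r was 0.95 for Tal1 and Lyl1, 0.96 for Tal1 and Lmo4, 0.95 for Lmo2 and Ldb1 and -0.31 for Ldb1 and Ldb2.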

How the data were processed

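RNA-seq was analyzed from FPKM in 2 tables that the authors deposited, of 6 coculture and 15 sorted-cell libraries. Per the study's methods and the submitters' processing notes, TRIzol RNA was prepared with the VAHTS mRNA-seq v2 kit, HISAT2 2.0.5 placed the reads on GRCm38, StringTie 1.3.3 assembled and quantified transcripts, and Cuffdiff 1.3.0 was named for testing. The notes also name mm9, but 99.5% of the sorted-cell identifiers were in GENCODE M21 of GRCm38, used for positions. The tables were normalized separately, so no test crossed them. FPKM plus 1 was taken to log2, which understates changes of low genes. Genes averaging 0.5 FPKM or more over the 6 libraries compared were tested with limma 3.58.1 (trend, two-sided) in R 4.3.3, with Benjamini-Hochberg adjustment over all of them in each of 7 comparisons. All 9 members passed this filter in each. Lyl1 in mESC and Ldb2 in mESC and BM averaged under 0.5 FPKM, so there they passed only through the other group, which fixes their direction. Named genes were the 9 members, at most 4 per list by the largest change past both thresholds, and the 3 genes with the highest r. An item of the target list is not reported here. Ratios and shares were tested by exact permutation in scipy 1.17.1. Figures were drawn with matplotlib 3.10.9. Scripts were tested on simulated data. The members and lists were chosen with earlier results of these data known. Depth is unknown, so no counting interval was given. Replicate numbers deviated together between FL and BM (r = 0.242, 0.202 and 0.159 across genes) and in the coculture (r = 0.182, 0.0724 and 0.291). This pairing comes from the data and not the labels. In the other comparisons r was not positive for every number.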

Additional observations from a re-analysis of the deposited data

How the results depend on the processing

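Of 863 member values recomputed under the alternatives, 851 kept their direction and their side of both thresholds. The exception in calls was Ldb2 in the coculture, given in the report (1.07 with a pseudocount of 0.1). Values that turned were under the thresholds throughout: Tcf4 in the coculture (-0.03 with the closest pair averaged, an alternative chosen after seeing the data, and -0.03 without 3D+OP9 replicate 1 or 2, up to 0.26 without replicate 3), Tcf3 in D5-LSKCD201+ against D5-LSKCD201- (-0.05 without D5-LSKCD201- replicate 2, up to 0.43 without replicate 3), Tal1 in D5-LSKCD201- against mESC (-0.10) and in D5-LSKCD201+ against BM (0.24) after quantile normalization, Lmo4 in D5-LSKCD201- against mESC (0.09 without D5-LSKCD201- replicate 2, down to -0.26 without replicate 3), Tcf3 there (-0.07 with the closest pair averaged, -0.05 and -0.09 without D5-LSKCD201- replicates 1 and 3, and 0.40 without replicate 2) and Tcf3 in FL against BM (-0.07 without FL replicate 1). With the adjusted p alone, members counted rose from 3 to 6 in the coculture, from 3 to 7 against FL, from 4 to 7 against BM and from 3 to 6 between FL and BM. The shares of all genes passing it were 6.88%, 72.1%, 83.4% and 55.1% in that order. The last 3 member counts thus stood near the background. Quantile normalization moved the median of all genes from -0.23 to -0.02 against BM, from -0.12 to -0.01 between the D5 groups, from -0.16 to -0.05 against FL, from 0.05 to -0.10 in D5-LSKCD201- against mESC and from -0.13 to -0.02 between FL and BM. With a replicate block, 3 members were called in the coculture, 6 between the D5 groups, 7 and 4 against mESC, 3 against FL, 4 against BM and 3 between FL and BM, the counts without it. In the coculture, differences of ratios and shares that turned were Lyl1 to Tal1 (-0.384 without 3D+0.1% gelatin replicate 3, from -0.384 to 0.884 over the libraries left out), the Tcf3 share (from -0.0664 without 3D+OP9 replicate 3 to 2.98) and the Tcf12 share (-0.102 after quantile normalization, and from -0.798 to 1.42 over the libraries left out, with -0.245 without 3D+OP9 replicate 2 and -0.436 without 3D+0.1% gelatin replicate 2). At a mean of at least 1 FPKM, Tal1 was not tested in D5-LSKCD201- against mESC. The causes were not tested. Members averaging under 1 FPKM in a group (Tal1 in mESC and D5-LSKCD201-, Lyl1 in mESC and 3D+0.1% gelatin, and Ldb2 in mESC and BM) have fold changes that the pseudocount sets in part.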
